A study of Mus musculus with 2 samples.

Results

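The genes described are 43 named genes of the interferon response and of antigen processing, measured in mouse ovaries taken during induced ovulation after ulipristal acetate or after vehicle. They were taken by symbol from a fixed list, through every array probe set whose annotation named exactly 1 gene. Of the 43 genes, 41 had such a probe set (68 probe sets in all), out of 18193 named genes on the array. Isg15 and Ifi44 had none. The signal of 33 of the 41 was high enough on average to be measured, and 8 were dimmer.

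The arrays compared ovaries of immature wild type CD-1 mice, an outbred stock, aged 24 to 28 days. All mice received pregnant mare serum gonadotropin (PMSG, 5 IU), which grows follicles, and 48 h later human chorionic gonadotropin (hCG, 5 IU), which starts ovulation. At 2 h after hCG they received ulipristal acetate, a steroid that binds the progesterone receptor and alters its activity, or the oil vehicle, and ovaries were collected at 11 h. The labels give neither the dose of ulipristal nor the number of mice behind a sample, nor the injection from which the 11 h were counted. There was 1 array per treatment, so no spread between animals could be measured and no test between treatments was possible. Every difference below is between these 2 samples of whole ovary, in which fewer cells of a type and less RNA per cell cannot be told apart.

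Interferons are secreted proteins that warn cells of infection. Type I interferons act through the receptor Ifnar1 and Ifnar2 and the kinases Jak1 and Tyk2, and lead to a complex with Stat2 and Irf9 that binds the interferon-stimulated response element (ISRE) in promoters. Interferon gamma acts through another promoter element, the gamma-activated site (GAS). The induced genes sense viral nucleic acids, block viral replication, and cut and present peptides on MHC class I molecules. In the ovary, such genes can be active in follicle cells, stroma, vessels and resident leukocytes alike.

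Promoter sequence was examined for these genes because the ISRE is the element that many of them are known to share. The ISRE core was searched as GAAA, any 2 bases and GAAA again, and the GAS core as TTCNNNGAA, on both strands and with overlapping matches counted, from 250 bases before to 50 bases after each RefSeq start site (build GRCm38.p6). Of the 43 genes, 34 had a promoter in the table, and 18 of these (52.9%) held an ISRE core. The share over all 27025 genes in the table was 3.99%. A GAS core stood in a promoter of 8 of the 34 genes (23.5%), against 9.55% of all genes. The genes had been chosen as interferon response genes, so these shares describe the choice. The stretches below are 60 bases of promoter with the ISRE matches in capitals, all lying before the start site. The first 4 belong to genes at least 1.5-fold higher on the ulipristal array, and the last 3 to genes with log2 ratios below 0.

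Trim5 (chr7:104288121-104288180, minus strand): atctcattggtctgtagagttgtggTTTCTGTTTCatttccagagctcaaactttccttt
Oas1a (chr5:120907526-120907585, minus strand): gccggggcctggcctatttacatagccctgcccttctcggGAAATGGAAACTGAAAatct
Bst2 (chr8:71537568-71537627, minus strand): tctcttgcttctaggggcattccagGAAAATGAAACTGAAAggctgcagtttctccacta
Stat2 (chr10:128270251-128270310, plus strand): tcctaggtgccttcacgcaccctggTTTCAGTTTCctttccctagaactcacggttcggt
Ifit3 (chr19:34583348-34583407, plus strand): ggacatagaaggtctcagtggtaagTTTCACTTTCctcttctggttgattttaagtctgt
Rsad2 (chr12:26456538-26456597, minus strand): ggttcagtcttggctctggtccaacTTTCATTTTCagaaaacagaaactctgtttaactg
Gbp3 (chr3:142559974-142560033, plus strand): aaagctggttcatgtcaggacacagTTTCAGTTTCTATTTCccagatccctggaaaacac

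Among 15 measured genes with an ISRE core in the promoter table, log2 ratios ran from -0.36 to 2.21. Among 14 measured genes whose listed promoters held none, they ran from -0.46 to 1.23, so both sets overlapped over most of their range. Trim5, Trim34a and Oas1a in the first set and Irf7 in the second reached the signal needed for measurement only through the ulipristal array. For Parp9, Parp14, Oas2 and Rtp4 no promoter was in the table. A match to the core is a match of letters and not evidence of binding.

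Signals are MAS5 probe set intensities in arbitrary units, which the authors' scaling brought to a trimmed mean of 150.001 on both arrays. Signals under 7.17, the 25th percentile of both arrays, were set to that floor before a ratio was taken. A gene was read from its probe set with the highest mean signal and counted as measured where that mean reached 30.8, the median of all probe sets. Ratios are log2 of ulipristal minus log2 of vehicle, and 2-fold was the size called a difference. The ovary label was checked against marker genes, of which 12 of 12 granulosa cell markers and 10 of 12 oocyte markers were measured on these arrays. Of all 18193 named genes 11364 were measured, and so were 8 of 10 oviduct markers. The check therefore does not show that the samples held ovary alone.

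Of the 33 measured interferon response genes, 5 were at least 2-fold higher on the ulipristal array. Over all 11364 measured genes that share was 3.34%. None of the 33 was at least 2-fold lower, where 1.56% of all measured genes were. The higher genes were Trim5, Trim34a, Oas2, Ifit2 and Oasl2. Log2 ratios were above 0 for 23 genes and below 0 for 10, with a median of 0.44 against 0.09 for all measured genes. Of all measured genes, 6818 lay above 0. At the smaller size of 1.5-fold, 13 of the 33 were higher and 0 lower, against 12.3% and 4.58% of all measured genes. Ratios on these arrays depended on signal. Among measured genes with a mean signal under 100, 9.51% were at least 2-fold higher and 1.98% lower, and of the 17 interferon response genes in that range 4 were higher and 0 lower. Among genes at 100 or more these shares were 1.26% and 1.41%, and of 16 interferon response genes 1 was higher and 0 lower. Of the 17 under 100, 12 lay above 0, near the 70.1% of all genes in that range. Of the 16 at 100 or more, 11 lay above 0, against 56.6% of all genes there. Without the signal filter, 9 of 41 genes were at least 2-fold higher and 0 lower, where 5.63% and 2.53% of all named genes were. Of the 33 genes, 5 were under the filter signal on the vehicle array (Trim5, Trim34a, Oas2, Oas1a and Irf7) and 1, Ifit3, on the ulipristal array. Of the 5 measured genes that were at least 2-fold higher, 3 were under the filter signal on the vehicle array and passed through the ulipristal array, so the count of 5 depends on how dim signals are read.

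**Figure D1:**
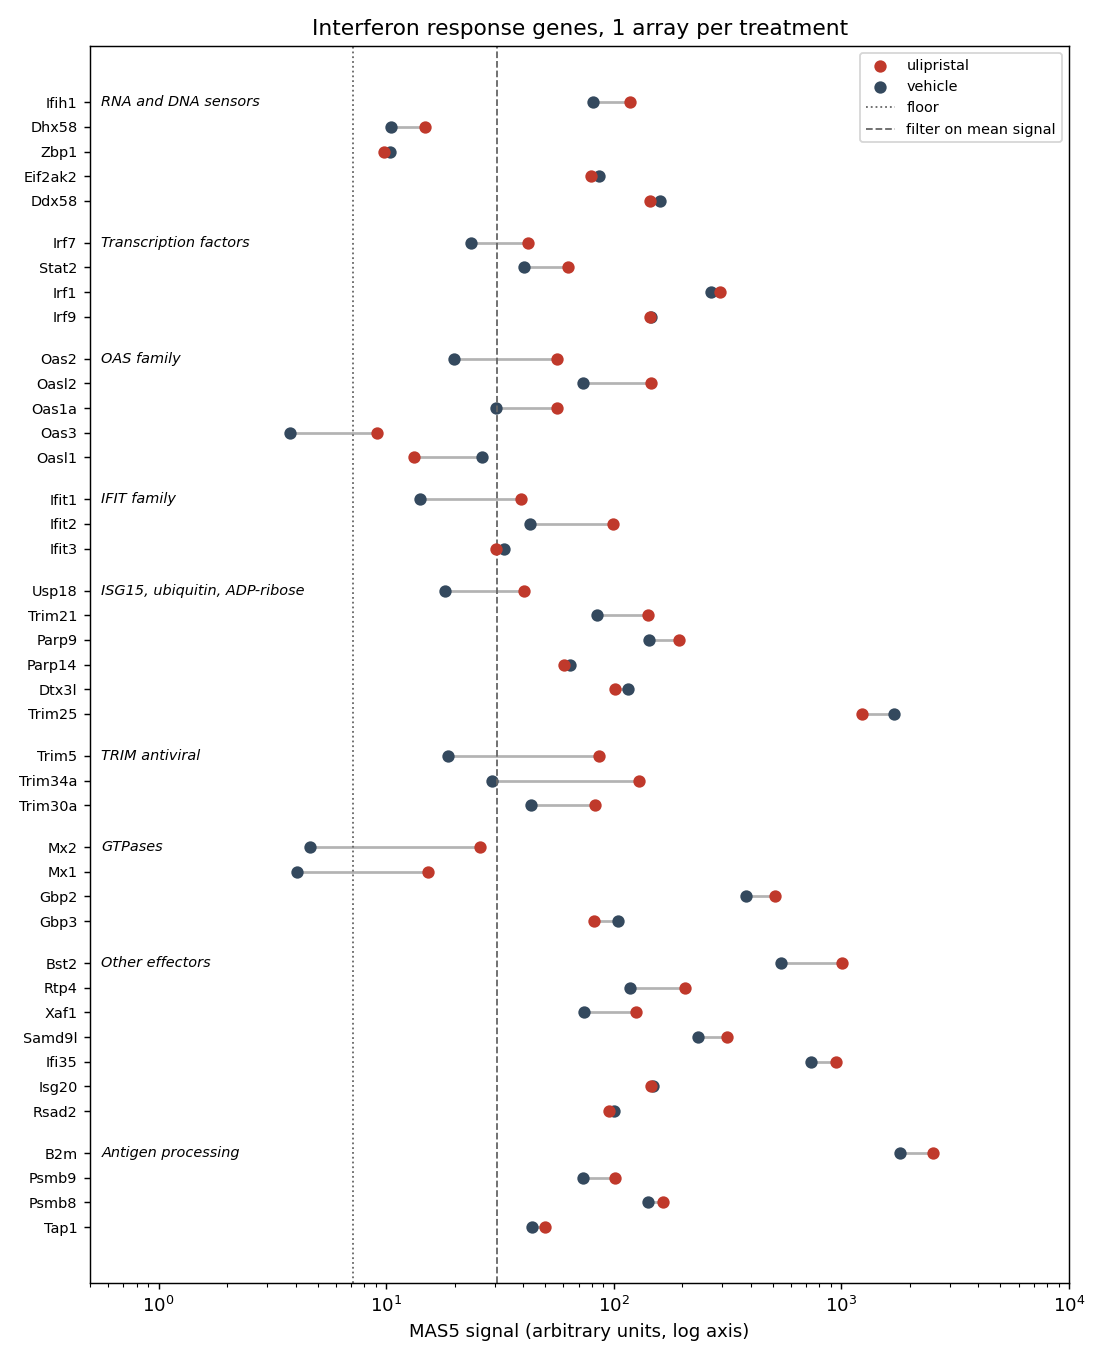
Signal of each gene on the ulipristal array (red) and the vehicle array (dark) on a log axis, from the probe set with the highest mean signal, grouped by role. The dotted line is the floor of 7.17 and the dashed line the filter of 30.8. Trim5, Trim34a and the dim Mx2 have the widest gaps, and most genes to the right of 100 have narrow ones.

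**Figure D2:**
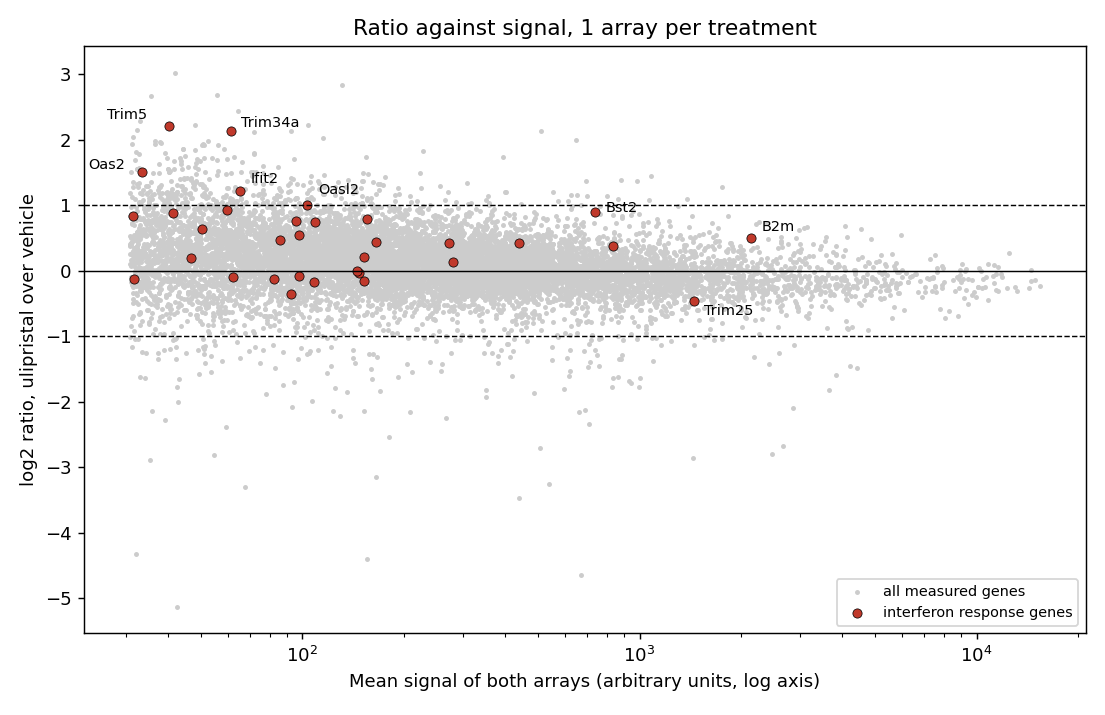
Log2 ratio of ulipristal over vehicle (y axis) against the mean signal of both arrays (x axis, log scale) for all measured genes (grey) and the 33 measured interferon response genes (red). The grey cloud is wider and sits higher at low signal, where Trim5, Trim34a, Oas2 and Ifit2 lie. Oasl2 sits just past the 2-fold line, and Bst2 and B2m lie above 0 at higher signals.

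With 1 array per treatment, the only error that could be seen was the disagreement between probe sets of 1 gene, which is not a spread between animals. Over 2982 genes with exactly 2 measured probe sets, the log2 ratios of the pair differed by a median of 0.33 and by 0.83 at the 90th percentile. For the 419 of these genes with mean signals under 100, the gaps were 0.40 and 1.06. For dim genes, a 2-fold difference on a single probe set is thus within the gaps seen between probe sets of 1 gene. Of 10 interferon response genes with several measured probe sets, 6 had all of them on the same side of 0.

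Of the 3 measured sensors of foreign nucleic acid, Ifih1 had a log2 ratio above 0 and the others had ratios slightly below it. Ddx58, which encodes the RNA sensor RIG-I, had a signal of 144 on the ulipristal array and 160 on the vehicle array. Its other measured probe set read 51.6 after ulipristal and 48.3 after vehicle, a log2 ratio of 0.09. Ifih1, the sensor of long double-stranded RNA known as MDA5, read 118 after ulipristal and 81.1 after vehicle, a log2 ratio of 0.54. Eif2ak2, the kinase PKR that halts translation when it binds double-stranded RNA, read 79.1 after ulipristal and 86.1 after vehicle. None of these 3 measured sensors reached 2-fold. Dhx58, which encodes the RIG-I relative LGP2, and Zbp1, a sensor of Z-form nucleic acid, stayed between 9.82 and 14.8 on their best probe sets and were too dim to be measured.

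The transcription factors of the response also stayed under 2-fold, with 3 of 4 log2 ratios above 0. Stat2, a subunit of the ISRE-binding complex, read 63.1 on the ulipristal array and 40.3 on the vehicle array, with log2 ratios of 0.64 and 0.85 from its 2 probe sets. Irf9, the DNA-binding subunit of the same complex, read 145 after ulipristal and 146 after vehicle. Irf7, which amplifies the production of type I interferon, read 41.9 after ulipristal and 23.6 after vehicle, a log2 ratio of 0.83 on a single dim probe set. Irf1, a factor induced by interferon gamma, read 294 after ulipristal and 266 after vehicle. The subunits of the same complex thus had unlike ratios, 0.64 for Stat2 and -0.01 for Irf9.

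The oligoadenylate synthetases, which answer double-stranded RNA by making the activator of RNase L, had 3 measured members. Of these, Oas2 and Oas1a were under the filter signal on the vehicle array and passed through the ulipristal array, so their direction is partly set by the filter. Oas2 read 56.3 after ulipristal and 19.9 after vehicle, 2.83-fold higher. Oas1a read 56.3 after ulipristal and 30.4 after vehicle, 1.85-fold higher. Oasl2, an OAS-like protein, read 146 after ulipristal and 73.0 after vehicle, 2.00-fold higher, just inside the 2-fold limit. The nearest genes outside that limit were Trim30a, at 1.90-fold, and Bst2, at 1.86-fold. The remaining family members were dim and went both ways. Oas3 read 9.12 after ulipristal and was under the floor after vehicle, while Oasl1 read 13.3 after ulipristal and 26.3 after vehicle.

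The IFIT proteins bind viral RNA that lacks the cap marks of host messages. Ifit2 read 99.6 on the ulipristal array and 42.6 on the vehicle array, 2.34-fold higher. Its relative Ifit3, also on chromosome 19, read 30.3 after ulipristal and 33.0 after vehicle. Ifit1 was too dim to count as measured, with 39.0 after ulipristal and 14.1 after vehicle, 2.78-fold higher. Ifit3, with an ISRE core in its promoter, was thus level between the arrays where the other members of the family were not.

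Enzymes of ISG15, ubiquitin and ADP-ribose attachment went both ways and none of the 5 measured reached 2-fold. Trim25, a ubiquitin ligase that acts on RIG-I, had the lowest ratio of all 33 genes. It read 1234 after ulipristal and 1695 after vehicle, a log2 ratio of -0.46, and its 3 probe sets gave ratios from -0.46 to -0.33. Trim21, a ubiquitin ligase and cytosolic receptor for antibodies, read 141 after ulipristal and 84.3 after vehicle, but its other probe set had a log2 ratio of -0.09. So the readings of Trim25 pointed one way and those of Trim21 did not. Parp9 read 193 after ulipristal and 142 after vehicle. Its partner Dtx3l, a ubiquitin ligase, read 102 after ulipristal and 115 after vehicle. A second measured probe set of Dtx3l read 85.4 after ulipristal and 58.5 after vehicle, a log2 ratio of 0.55, so its readings pointed both ways. Parp14, a mono-ADP-ribosyltransferase, read 60.5 after ulipristal and 64.4 after vehicle. Usp18, the protease that removes ISG15 and damps receptor signalling, was dim, with 40.3 after ulipristal and 18.2 after vehicle, 2.21-fold higher. Of the genes here with several probe sets, Trim25 was the only one with all of them lower after ulipristal.

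Trim5 and Trim34a held the highest ratios of the measured interferon response genes. Trim5, whose homologue in monkeys and humans attacks retroviral capsids, read 86.3 on the ulipristal array and 18.7 on the vehicle array on its single probe set, 4.61-fold higher. Trim34a read 128 after ulipristal and 29.2 after vehicle, 4.39-fold higher, but a second and dimmer probe set read 10.2 after ulipristal and 20.6 after vehicle, a log2 ratio of -1.02. Trim30a, which in the mouse is known to restrain NF-kappa-B signalling, read 82.5 after ulipristal and 43.4 after vehicle, and its other measured probe set read 24.3 after ulipristal and 39.2 after vehicle. Probe sets of Trim34a and of Trim30a therefore pointed both ways.

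These genes stand close together on chromosome 7, in a stretch that holds 9 Trim genes in the RefSeq order. Such close relatives can share probes, so a reading of 1 of them is uncertain. Trim30d, a near copy of Trim30a in that stretch, read 54.3 after ulipristal and 7.88 after vehicle on one probe set. Trim12c in the same stretch read 68.6 after ulipristal and 161 after vehicle, a log2 ratio of -1.23. Both were looked up after the values of Trim5 and Trim34a were seen. Within the stretch, 4 of 11 probe sets that named 1 gene were higher by 2-fold or more, and 2 were lower by as much. Over all probe sets that named 1 gene these shares were 5.38% and 3.21%, and 6 of the 11 were dim. The 4 include the probe sets of Trim5 and Trim34a that prompted the look, so the count gives them no separate support. The others of the 4 were dim probe sets of Trim30d. Without Trim5, Trim34a and Trim30a, 3 of 30 measured interferon response genes were higher by 2-fold or more, against 3.34% of all measured genes, and the median over the 30 was 0.42.

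**Figure D3:**
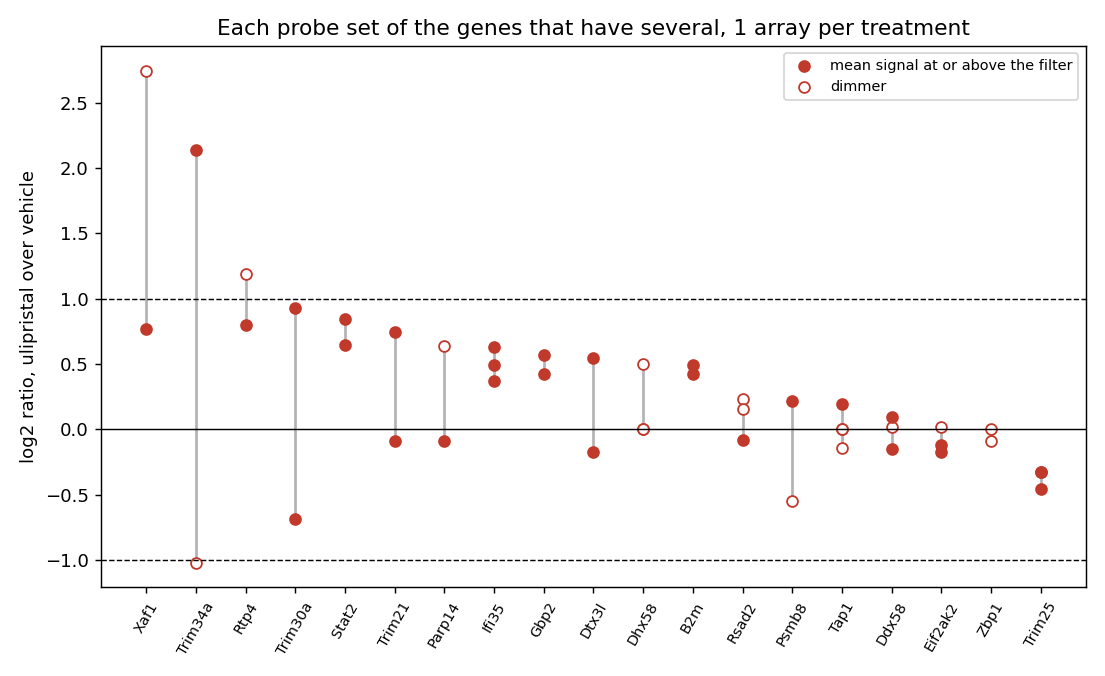
Log2 ratio of ulipristal over vehicle (y axis) for each probe set of the genes with several, with filled points for probe sets at or above the signal filter and open points for dimmer ones. The probe sets of B2m, Gbp2, Ifi35, Stat2 and Trim25 lie close together. Those of Trim34a and Trim30a lie on both sides of 0, and the high point of Xaf1 is a dim probe set.

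Of the antiviral GTPases, Mx1 and Mx2 were dim on both arrays. Mx2, a cytoplasmic protein in the mouse, read 25.7 after ulipristal and under the floor after vehicle, at least 3.58-fold higher. Mx1, known for blocking influenza virus in the mouse nucleus, read 15.3 after ulipristal and under the floor after vehicle, at least 2.13-fold higher. Both lie below the level set for measurement. Gbp2, a guanylate-binding protein that acts at pathogen vacuoles, read 508 after ulipristal and 379 after vehicle, with log2 ratios of 0.42 and 0.57 from its probe sets. Its relative Gbp3 read 81.7 after ulipristal and 105 after vehicle, a log2 ratio of -0.36.

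The other effectors had 5 of 7 measured ratios above 0 and none past 2-fold. Bst2, the membrane protein tetherin that holds budding virus at the cell surface, read 1002 on the ulipristal array and 540 on the vehicle array. Its log2 ratio of 0.89 lay just above 0.87, the 95th percentile of all measured genes. Rtp4 read 205 after ulipristal and 118 after vehicle, a log2 ratio of 0.80, and its dim probe set also lay above 0. Xaf1 read 125 after ulipristal and 73.6 after vehicle, and a dim probe set read 48.1 after ulipristal and under the floor after vehicle. Every probe set of Bst2, Rtp4 and Xaf1 was thus higher on the ulipristal array. Samd9l, an antiviral protein, read 315 after ulipristal and 235 after vehicle. Ifi35 read 951 after ulipristal and 735 after vehicle, with log2 ratios between 0.37 and 0.63 over 3 probe sets. The other effectors were level between the arrays. Rsad2, the antiviral enzyme viperin, read 94.8 after ulipristal and 101 after vehicle. The exonuclease gene Isg20 read 145 after ulipristal and 148 after vehicle.

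Antigen processing genes had log2 ratios between 0.19 and 0.49, all 4 above 0 and none past 2-fold. B2m, the light chain of MHC class I molecules, read 2538 on the ulipristal array and 1803 on the vehicle array, and its second probe set read 2460 after ulipristal and 1831 after vehicle. The probe sets of this gene were thus close in both level and ratio. Psmb8, a catalytic subunit of the immunoproteasome, read 164 after ulipristal and 141 after vehicle. A dim probe set of Psmb8 went the other way, with 11.4 after ulipristal and 16.6 after vehicle. Psmb9, another such subunit, read 101 after ulipristal and 73.0 after vehicle. Tap1, which carries peptides into the endoplasmic reticulum, read 50.04 after ulipristal and 43.8 after vehicle, with its other 3 probe sets near or under the floor. The median of 0.34 for these 4 genes stood against 0.09 for all measured genes. Of these genes B2m alone had more than 1 measured probe set.

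Other genes of the pathway were read from lists of their own. Messages of the interferons themselves were hardly measured: of 10 listed genes with a probe set, which include Il15 and Il18, only Il18 was bright enough, and 6 lay under the floor on both arrays. Ifnb1, named after its values were seen, read 13.4 after ulipristal and 10.9 after vehicle. Interferon receptors and JAK-STAT genes had 12 measured members, of which 0 were at least 2-fold higher and 1 was lower, with a median log2 ratio of 0.01. Over all measured genes these shares were 3.34% and 1.56%. The lower gene of this list was Socs3, a feedback inhibitor of cytokine receptors, with 313 after ulipristal and 1395 after vehicle. Genes between sensing and the IRF factors had 0 of 12 past 2-fold and a median of 0.11, with the highest ratio in the kinase gene Ikbke, 84.5 after ulipristal and 44.5 after vehicle.

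Among other interferon-induced genes, 5 of 34 measured were higher by 2-fold or more, 1 was lower by as much, and the median log2 ratio was 0.30. Over all measured genes the shares were 3.34% and 1.56%, with 9.51% higher at mean signals under 100, where Uba7, Cxcl10 and Gbp6 lay. Uba7, the enzyme that activates ISG15, read 92.7 after ulipristal and 28.0 after vehicle, 3.31-fold higher, with log2 ratios between 0.55 and 1.73 over 3 probe sets. The chemokine gene Cxcl10 read 68.1 after ulipristal and 27.9 after vehicle. Gbp6 read 104 after ulipristal and 43.8 after vehicle, and Lgals9, a galectin, read 161 after ulipristal and 68.5 after vehicle. Ifi27l2a was the remaining higher gene, and Slfn2 was the lower one, with 29.4 after ulipristal and 60.2 after vehicle; both are named after their values were seen. Each of the higher genes other than Uba7 rested on 1 measured probe set. Uba7 and Cxcl10 were under the filter signal on the vehicle array, and passed through the ulipristal array. Slfn2 was under it on the ulipristal array, and passed through the vehicle array. The direction of these genes is thus partly set by the filter.

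The MHC class I pathway beyond the genes above had 1 of 13 measured genes at least 2-fold higher and a median log2 ratio of 0.03. That median is the ratio of H2-D1 on its brightest probe set, but its 7 measured probe sets ran from -1.03 to 1.10. The 3 measured probe sets of H2-K1 ran from -0.87 to 0.56, so the readings of both genes went both ways. Both are named after their values were seen. Over all measured genes the share higher was 3.34%. The higher gene was H2-Q10, a nonclassical class I gene, with 66.8 after ulipristal and 27.0 after vehicle. H2-Q10 was under the filter signal on the vehicle array and passed through the ulipristal array. Tapbp, the chaperone tapasin, read 765 after ulipristal and 476 after vehicle. The MHC class II pathway had 0 of 6 past 2-fold and a median of 0.38. Among its genes H2-Eb1, a class II chain, read 80.9 after ulipristal and 45.1 after vehicle. Subunits of the constitutive proteasome had 10 of 12 ratios below 0 and a median of -0.08, but Psmb7 read 1582 after ulipristal and 613 after vehicle.

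**Figure D4:**
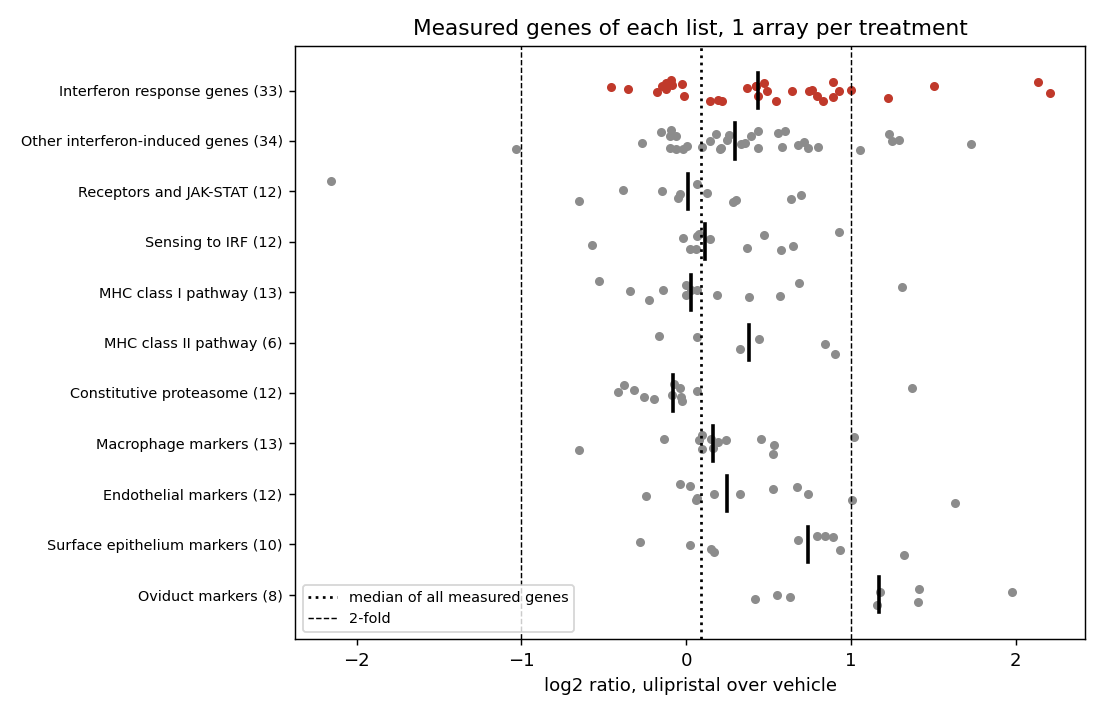
Log2 ratio of ulipristal over vehicle (x axis) for every measured gene of each list (points, number of genes in brackets), with the list's median as a bar. The interferon response genes have a median of 0.44 and other interferon-induced genes 0.30, while receptors and JAK-STAT genes, at 0.01, and MHC class I genes, at 0.03, lie by the dotted median of all measured genes at 0.09. The medians of oviduct and surface epithelium markers lie further to the right.

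Several marker lists of ovarian and other cell types also had medians away from the 0.09 of all measured genes. The medians of oocyte and macrophage markers, at 0.14 and 0.16, were close to it. Over all measured genes, 3.34% were higher and 1.56% lower by 2-fold or more. Granulosa cell markers had 5 of 12 genes higher by 2-fold or more, 0 lower by as much, and a median ratio of 0.61 on the log2 scale, with summed signals of 19121 after ulipristal and 14799 after vehicle. The median was 0.34 for 9 theca and interstitial markers and 0.14 for 10 oocyte markers. Neutrophil markers were lower after ulipristal in 2 of 3 measured genes, S100a8 and S100a9, by 2-fold or more, and Ltf was higher by as much. Macrophage markers had 13 of 14 genes measured, 1 of them at least 2-fold higher, and a median log2 ratio of 0.16, with summed signals of 2649 after ulipristal and 2255 after vehicle. Lymphocyte markers were hardly measured: 1 of 12 with a probe set was measured, and Cd3e, Cd4 and Nkg7 lay under the floor on both. The dendritic cell list was similar. It had 1 of 7 measured, and Ccr7 and Cd209a lay under the floor on both arrays. Endothelial markers had 2 of 12 genes at least 2-fold higher and a median of 0.25, with summed signals of 3247 after ulipristal and 2707 after vehicle. Epithelial markers had higher medians than these lists. Surface epithelium markers had a median of 0.74, but only 1 of 10 genes was at least 2-fold higher. Their summed signals were 2235 after ulipristal and 1497 after vehicle. Oviduct markers had 5 of 8 genes at least 2-fold higher and a median of 1.17, with summed signals of 6541 after ulipristal and 4104 after vehicle. Of these sums, Ovgp1 alone gave 5642 after ulipristal and 3641 after vehicle. Foxj1 and Ccdc39 in this list, and the endothelial marker Tie1, were under the filter signal on the vehicle array. The granulosa cell marker Amh was under it on the ulipristal array. The part of these cells and tissues in the values of the interferon response genes was not tested.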

How the data were processed

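Whole-ovary total RNA (100 ng) was labelled and hybridised to Mouse Genome 430 2.0 arrays, as the labels' protocols state. The authors deposited one linear intensity per probe set. MAS5 and Affymetrix Expression Console (version 1) are named, per the submitters' processing notes, with no role for either. Both arrays had a trimmed mean of 150.001 (2% left out at each end), which hides any shift common to most genes. The platform annotation was used for names: 34945 of 45101 probe sets named 1 gene and 932 several. Detection calls were not used here.

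Groups came from the treatment labels. With 1 array per group there was no test, and the number of arrays limits the precision. The steps were tested on simulated data. All genes, lists, thresholds and the naming rule (every measured gene of the 43, and up to 4 per other list by size of ratio) were chosen with earlier results of these data known. Alternatives concerned normalization, floor, filter, probe set summary and fold. Python 3.11.15, numpy 2.4.6, pandas 2.3.3, scipy 1.17.1, statsmodels 0.14.6 and matplotlib 3.10.9 were used. Promoters came from RefSeq.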

Additional observations from a re-analysis of the deposited data

Results flagged for a closer look

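Probe sets annotated to a gene of the list together with a second gene were not used above. Of 4 such probe sets, 2 were at least 2-fold higher on the ulipristal array than on the vehicle array. Over all probe sets that named 1 gene this share was 5.38%. Both higher ones were under the floor on the vehicle array, so their ratios depend on the floor. Both name Trim genes of the chromosome 7 stretch. One shared by Trim34b and Trim34a read 57.8 after ulipristal and 5.54 after vehicle, at least 8.06-fold higher. One shared by Trim30d and Trim30a read 14.6 after ulipristal and 5.01 after vehicle, at least 2.04-fold higher, and both readings are dim. A second probe set shared by Trim34b and Trim34a read 8.47 after ulipristal and 6.33 after vehicle.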

How the results depend on the processing

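The count of 5 genes at least 2-fold higher became 9 of 41 with no signal filter, 0 of 9 with the filter at the 75th percentile, 1 with 50 added to every signal, 13 at 1.5-fold and 2 at 3-fold. Over all genes, the shares higher were 5.63% with no filter, 0.82% with the stricter filter, 0.48% with 50 added and 0.53% at 3-fold. The count of higher genes was 3 without the Trim genes of chromosome 7, an alternative chosen after seeing the data. It was 4 or 5 under the other 7 alternatives, where between 2.30% and 3.56% of all measured genes were higher. The count of lower genes was 0 under all 13, where between 0.50% and 4.58% of all genes were lower. The median log2 ratio was 0.34 with 50 added to every signal, and between 0.38 and 0.49 otherwise. Of all measured genes past 2-fold, 68.2% were higher; this was 57.3% after quantile normalization, 56.2% after lowess centring, 36.5% with the stricter filter and 35.8% with 50 added. Oasl2 passed 2-fold under 5 of 9 alternatives, Oas2 under 7, Ifit2 and Trim5 under 8 and Trim34a under 9. At 1.5-fold, 12.3% of all measured genes were higher. Low signal and the single array per treatment limit all these values.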

Other observations

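The probe set annotated to Isg15 and a related sequence, Gm9706, read 48.7 after ulipristal and 52.0 after vehicle. In the same samples Uba7, the activating enzyme of ISG15, was 3.31-fold higher on its brightest probe set, and Usp18, which removes ISG15, was 2.21-fold higher at dim signals. On the vehicle array that probe set of Uba7 read 28.0, under the filter signal. These values were chosen after they were seen, and no test was possible.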
